A study of Rattus norvegicus with 24 samples.

Results

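The cardiac thin filament genes Tnnt2, Tnni3 and Actc1 were followed across 24 rat heart septum libraries. The 3 genes, out of 30562 annotated genes in the count table, were taken by their Ensembl identifiers, and each lay on the chromosome given for it. Tnnt2 (ENSRNOG00000033734) spans chr13:47267204-47285388 on the plus strand of the mRatBN7.2 assembly, with an exonic length of 1683 bp. Tnni3 (ENSRNOG00000018250) spans chr1:69299900-69303580 on the plus strand, with 802 bp of exon. Actc1 (ENSRNOG00000008536) spans chr3:100811987-100817523 on the minus strand, with 1489 bp of exon. No annotated gene overlaps any of them on either strand (0 in each case), and all 3 passed the filter on low counts, among 17347 tested genes.

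All rats were Sprague-Dawley, had undergone cardiac ischemia-reperfusion, carried a cannula in the cerebral ventricles, and gave septum on day 28. The 4 groups of 6 rats were intact brown adipose tissue (BAT) with vehicle, intact BAT with leptin, BAT ablation with leptin, and BAT sympathetic denervation with leptin. They are called vehicle, leptin, ablation and denervation below. Brown adipose tissue is the fat depot that makes heat, and leptin is a hormone of fat cells that is sensed in the hypothalamus. Neither operation was paired with vehicle among these samples, so an operation can be compared only within leptin-infused rats or against intact, vehicle-infused ones. The age of the rats and the method of ablation or denervation are not given in the sources used here. Each library is named for a separately numbered rat, and within-group spread therefore covers differences between rats.

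The thin filament is the actin cable of the sarcomere along which myosin pulls. Actc1 encodes cardiac alpha-actin, the subunit of the cable itself. Tnnt2 encodes cardiac troponin T, which ties the troponin complex to tropomyosin on the cable, and Tnni3 encodes cardiac troponin I, which holds back the interaction of actin with myosin until calcium binds the complex. In the adult heart these transcripts come from cardiomyocytes, and both troponins are used as blood markers of heart injury. In bulk tissue, fewer cardiomyocytes and less of such RNA per cardiomyocyte cannot be told apart.

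The promoter windows of the 3 genes are shown because their transcripts shared only part of their variation between libraries. Each window runs from 250 bases before to 50 bases after the annotated start, read 5′ to 3′ along the gene, from the RefSeq table for the GRCr8 assembly, a different build from that of the counts. All 3 genes matched by symbol, and the table holds 2 starts for Tnnt2, of which 1 is shown. Capitals mark matches to the letters or named motifs given after the sequences.
Tnnt2, chr13:49818873-49819172, plus strand: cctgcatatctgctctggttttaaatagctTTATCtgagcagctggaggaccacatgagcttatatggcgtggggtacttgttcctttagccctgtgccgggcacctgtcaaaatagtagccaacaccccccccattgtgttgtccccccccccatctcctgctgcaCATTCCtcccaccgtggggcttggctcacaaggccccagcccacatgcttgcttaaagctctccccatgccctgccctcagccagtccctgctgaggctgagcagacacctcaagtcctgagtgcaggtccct
Tnni3, chr1:78342321-78342620, plus strand: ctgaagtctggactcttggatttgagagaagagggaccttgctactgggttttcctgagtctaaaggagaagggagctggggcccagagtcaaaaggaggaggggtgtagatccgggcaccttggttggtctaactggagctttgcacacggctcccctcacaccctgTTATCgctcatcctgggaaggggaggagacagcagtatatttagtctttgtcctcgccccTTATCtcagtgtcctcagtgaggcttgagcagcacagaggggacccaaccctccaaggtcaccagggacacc
Actc1, chr3:121271778-121272077, minus strand: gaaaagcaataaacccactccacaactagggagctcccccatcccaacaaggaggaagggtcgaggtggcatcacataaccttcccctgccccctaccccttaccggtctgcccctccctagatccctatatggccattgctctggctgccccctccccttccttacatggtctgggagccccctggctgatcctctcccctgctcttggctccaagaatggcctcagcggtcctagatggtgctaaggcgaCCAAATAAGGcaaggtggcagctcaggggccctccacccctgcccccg

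Both strands were searched for 5 motifs, and a match is a description of the letters. GATAA, the core of GATA factor motifs, read on the other strand as TTATC, began at position -220 of Tnnt2 and at positions -82 and -22 of Tnni3, where the annotated start is position 1 and negative positions lie before it. It occurred in 26.5% of the 33469 promoter windows in the table. CATTCC, the core of TEAD factor motifs, began at position -83 of Tnnt2 and occurred in 14.2% of windows. The serum response factor motif known as the CArG box matched once, in Actc1, from position 3, and occurred in 1.64% of windows. The MEF2 motif (3.29% of windows) and TATAAA (14.2%) matched in none of the 3 windows. The matched letters overlapped nowhere.

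The libraries held 71587993 to 122910706 assigned reads, of which 23.1% to 45.9% lay on the mitochondrial chromosome. All 3 genes were among the most abundant nuclear transcripts of the septum. Ranked by CPM (the read count relative to library size, scaled by TMM, which evens out differences in RNA composition), Tnnt2 lay between rank 2 and 8 of the nuclear genes of a library, Tnni3 between 5 and 18, and Actc1 between 2 and 29. The lowest count of any of them in a library was 88623 reads, so that counting error, taking each read pair as 1 event, was at most 0.475%. Replicate spread, not depth, set the precision of every value below. Per length, in RPKM (CPM per kilobase of exon), the means over 24 libraries were 4952 ± 1320 (SD) for Tnni3, 4211 ± 3537 for Actc1 and 4100 ± 1335 for Tnnt2. The 3 levels per length lay within their own spread of each other.

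Actc1 was by far the most variable of the 3. Its coefficient of variation in CPM over the 24 libraries was 84.0%, against 32.6% for Tnnt2 and 26.7% for Tnni3. The highest Actc1 library had 18.3 times the CPM of the lowest, where the same ratio was 3.79 for Tnnt2 and 3.98 for Tnni3. A thin filament actin and the regulatory subunits on it were thus not in a fixed proportion in these RNA samples. Actc1 is close in sequence to the other actin genes, and the file header gives no option to count reads that map to several places, so its level depends on how many of its reads mapped uniquely.

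Actc1 levels differed between sets of rats split by number, while no relation of Actc1 with number within either set passed. The 7 rats with the highest numbers are vehicle replicates 4, 5 and 6, leptin replicate 6, ablation replicate 6 and denervation replicates 5 and 6. They are called high-numbered here and the 17 others low-numbered. This boundary was read earlier from the first principal component of these same libraries, so the values by set are a description with no test. Actc1 stood at 13525 ± 3140 CPM (SD, n = 7; lowest 7939, median 13396, highest 16867) in the high-numbered rats and at 3282 ± 1914 CPM (n = 17; lowest 921, median 2572, highest 7121) in the others. In CPM every high-numbered rat lay above every low-numbered rat, a log2 difference of 2.25. In either direction, 3.95% of tested genes differed more. Sets that did not overlap in CPM were seen for 28.8% of all tested genes, and for 18.1% with the high-numbered rats above. The separation of Actc1 in CPM was thus shared with many genes. The TMM factors were 0.699 to 0.903 in the high-numbered rats and 0.935 to 1.27 in the others. As a percent of nuclear reads, without TMM, Actc1 overlapped between the sets (lowest 0.855% in the high-numbered rats, highest 1.07% in the others).

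In CPM troponin T had the higher mean in the high-numbered rats, and troponin I had nearly the same mean in both sets. This pattern depends on the scaling. As a percent of nuclear reads, without TMM, Tnnt2 had means of 1.10% in the high-numbered rats and 0.957% in the others. Tnni3 had 0.470% and 0.642%. Tnnt2 was at 9244 ± 1383 CPM (SD, n = 7; lowest 7251, median 9008, highest 11726) in the high-numbered rats and 5935 ± 1774 CPM (n = 17; lowest 3092, median 5656, highest 9194) in the others. These ranges overlapped, and the log2 difference was 0.69. In either direction, 51.4% of all tested genes differed more, so a difference of this size was common. Tnni3 was at 3966 ± 833 CPM (n = 7) and 3973 ± 1162 CPM (n = 17), a log2 difference of 0.03, with wide overlap. Here 97.5% of all tested genes differed more. Per length, Actc1 was the highest of the 3 in the high-numbered rats, at 9084 ± 2109 RPKM against 5493 ± 822 for Tnnt2 and 4945 ± 1039 for Tnni3. In the low-numbered rats the order of these means was turned round, with Tnni3 at 4954 ± 1449, Tnnt2 at 3526 ± 1054 and Actc1 at 2204 ± 1286.

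**Figure D1:**
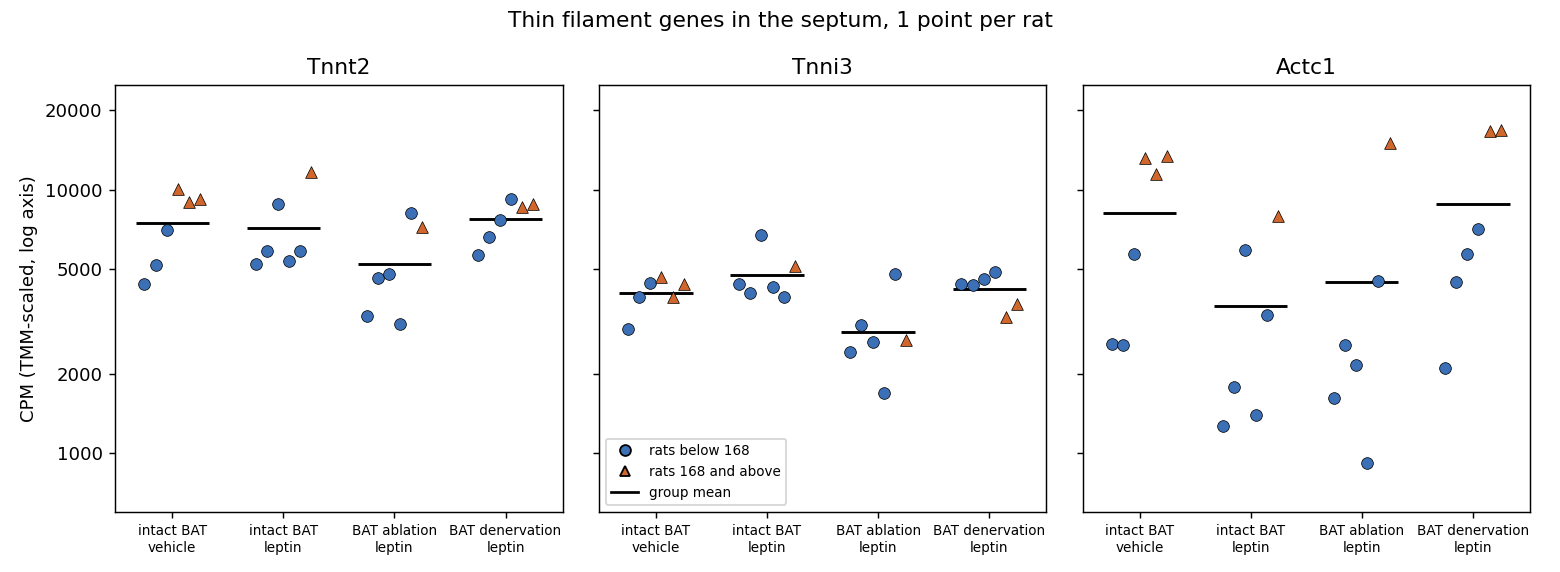
CPM of each gene (log axis) in the 4 groups, with 1 point per rat, triangles for the 7 high-numbered rats, circles for the 17 others, and a bar at the group mean. For Actc1 every triangle lies at or above 7939 CPM and every circle at or below 7121, while for Tnni3 the 2 kinds of point are mixed.

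The length profile of the libraries also followed the sets, and its part in these values was not tested. Genes were put in 5 classes by exonic length, and the median centred log2 CPM of the shortest class was taken from that of the longest. This length gradient of a library was 0.343 ± 0.104 (SD, n = 7) in the high-numbered rats and -0.172 ± 0.157 (n = 17) in the others. The ranges overlapped slightly (lowest 0.171 in the high-numbered rats, highest 0.177 in the others). The mitochondrial share of reads, at 31.6% ± 3.91 and 32.9% ± 6.57, lay within its spread in both sets. The labels give the rat number and no date or batch, and the sets are spread unequally over the groups (3 vehicle, 1 leptin, 1 ablation and 2 denervation rats in the high-numbered set).

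Ratios between the 3 genes within a library need no scaling between libraries, but a difference in length profile does not cancel in them. Tnni3 has 802 bp of exon, against 1683 bp for Tnnt2 and 1489 bp for Actc1. The part of the length gradient in these ratios was not tested. The log2 ratio of Actc1 to Tnni3 read counts was 1.76 ± 0.64 (SD, n = 7; lowest 0.63) in the high-numbered rats and -0.45 ± 0.67 (n = 17; highest 0.54) in the others, with no overlap. The ratio of Tnnt2 to Tnni3 was 1.24 ± 0.13 (lowest 1.08, highest 1.43) and 0.58 ± 0.20 (lowest 0.26, highest 0.91), again with no overlap. The ratio of Actc1 to Tnnt2 was 0.52 ± 0.56 and -1.03 ± 0.56, and here the ranges overlapped (lowest -0.56 in the first set, highest -0.30 in the second). The boundary between the sets came from these same libraries, and the share of other gene pairs with separated ratios was not computed. Among single genes, 28.8% had sets without overlap in CPM.

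Within the low-numbered set too, the ratio of the 2 troponin subunits tended to be higher at higher rat numbers. Over these 17 rats Pearson's r between rat number and the log2 ratio of Tnnt2 to Tnni3 was 0.778 and Spearman's rho was 0.792. The relation was noticed in the plot of ratios by rat number, so these values are a description with no test. The groups also lie at different rat numbers: within the low-numbered rats the mean ratio was 0.41 ± 0.14 (SD) with leptin (n = 5), 0.55 ± 0.13 with vehicle (n = 3), 0.66 ± 0.23 after denervation (n = 4) and 0.71 ± 0.18 after ablation (n = 5). Group and number are therefore partly mixed in this relation. In the same rats r was 0.444 for Actc1 to Tnni3 and 0.253 for Actc1 to Tnnt2, and in the 7 high-numbered rats it was 0.388 for Tnnt2 to Tnni3.

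**Figure D2:**
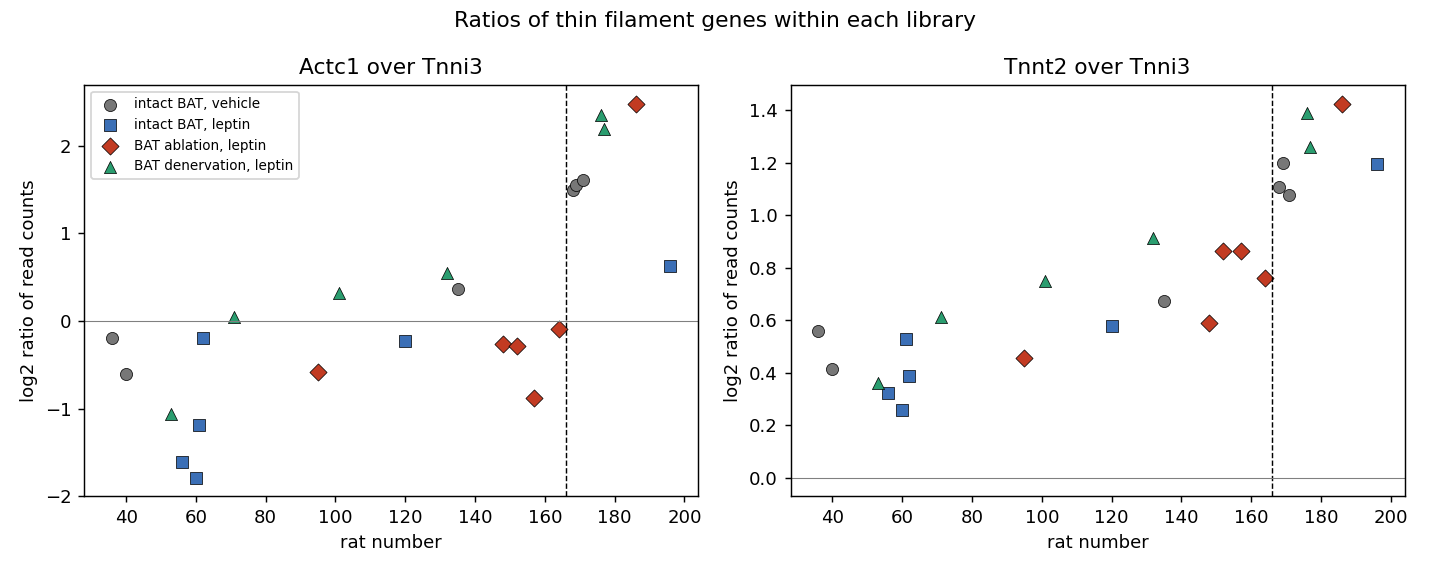
Log2 ratio of Actc1 to Tnni3 (left) and of Tnnt2 to Tnni3 (right) in each library against rat number, with a symbol for each group and a dashed line between the low-numbered and the high-numbered rats. Right of the line both ratios lie above all values on the left, and left of the line the ratio of Tnnt2 to Tnni3 runs from 0.26 to 0.91.

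Within a set of rats, both troponin genes moved together. In the 17 low-numbered rats r between their log2 CPM was 0.904 and rho was 0.931, each with a permutation p of 1e-05, the smallest that 100000 permutations can give, and an adjusted p of 0.00024. In all, 24 relations were computed, with Benjamini-Hochberg adjustment over them. Without the 2 rats farthest from the median r was 0.826. In the 7 high-numbered rats r was 0.951 (exact permutation p = 0.000992, adjusted p = 0.00794) and rho was 1.0. These tests permute rats over the groups, whose differences are part of the relation.

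Actc1 followed the troponins in the low-numbered rats and not in the high-numbered ones. Many other genes were more like Actc1 in the low-numbered rats than either troponin was, with ranks given below. In the 17 low-numbered rats r with Tnnt2 was 0.844 (permutation p = 3e-05, adjusted p = 0.00036; rho 0.775) and r with Tnni3 was 0.661 (permutation p = 0.0028, adjusted p = 0.0168; rho 0.676). The second of these fell to 0.466 without the 2 rats farthest from the median, so that it rests in part on those rats. In the 7 high-numbered rats the values were negative, r = -0.774 with Tnnt2 (exact permutation p = 0.0558) and r = -0.705 with Tnni3 (exact permutation p = 0.0742), and neither passed. Whether the relations differ between the sets was not tested.

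None of the 18 relations of a member's log2 CPM with rat number, mitochondrial share or length gradient passed after adjustment. The smallest adjusted p among them was 0.175, for the mitochondrial share with Tnni3 and with Actc1 in the 7 high-numbered rats. There r was 0.781 with Tnni3 (exact permutation p = 0.0437) and -0.745 with Actc1 (exact permutation p = 0.0435). For rat number with Actc1 in the same 7 rats r was -0.479 (exact permutation p = 0.275). This r turned to 0.929 without the 2 rats whose numbers lay farthest from the median. Only vehicle and denervation rats are then left, so number and group are mixed there.

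Genes most like each member were sought among 8709 genes with a mean of at least 10 CPM, by Pearson's r of log2 CPM over the 17 low-numbered rats. The 5 genes most like Tnnt2 had r of 0.941 to 0.960 there and 0.801 to 0.944 in the 7 other rats. Those most like Tnni3 had 0.935 to 0.958 and 0.595 to 0.942. Those most like Actc1 had 0.978 to 0.987 and then -0.876 to 0.105, so their likeness was not seen in the high-numbered rats. Actc1 had 243 genes with r over 0.9, Tnnt2 had 41 and Tnni3 had 28. Tnni3 ranked 36 among the genes most like Tnnt2, and Tnnt2 ranked 25 for Tnni3. Actc1 ranked 159 for Tnnt2 and 527 for Tnni3. Among the genes most like Actc1, Tnnt2 ranked 447 and Tnni3 ranked 1074. The points share library, depth and composition, and the count table does not pair these genes' identifiers with names.

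Between vehicle and leptin with intact BAT, which asks what leptin in the brain changed in the septum, none of the 3 genes passed the test. Tnnt2 was at 7486 ± 2334 CPM (SD, n = 6; lowest 4372, median 8017, highest 10072) with vehicle and 7143 ± 2606 CPM (lowest 5248, median 5857, highest 11726) with leptin. Tnni3 was at 4043 ± 606 CPM (lowest 2967, median 4151, highest 4669) and 4756 ± 1065 CPM (lowest 3912, median 4333, highest 6755). Actc1 was at 8156 ± 5135 CPM (lowest 2572, median 8611, highest 13396) and 3608 ± 2749 CPM (lowest 1272, median 2565, highest 7939). The groups overlapped for each gene. The 3 highest vehicle libraries for Actc1 and for Tnnt2 are the 3 high-numbered rats, and the highest leptin library for both is the 1 high-numbered rat there. The log2 differences, leptin minus vehicle, were -0.07 ± 0.28 (SE) for Tnnt2, 0.23 ± 0.22 for Tnni3 and -1.18 ± 0.67 for Actc1 (edgeR quasi-likelihood adjusted p = 0.895, 0.497 and 0.277).

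That was 0 of 3 genes called, where edgeR called 0.674% of all tested genes and 1.46% had groups that did not overlap. At an unadjusted p below 0.05 the count was also 0, against 4059 of all 17347 genes. DESeq2 called 0 of the 3 and 10.0% of all genes. limma-voom with sample quality weights called 60.7% of all genes and 2 of the 3, Actc1 at a log2 difference of -2.19 (adjusted p = 0.000313) and Tnnt2 at -0.49 (adjusted p = 0.0470). The rat-number set, whose boundary was read from these same libraries, was also put in the edgeR model as a term. With it the Actc1 difference was -0.40 ± 0.40 (edgeR adjusted p = 0.562), and that of Tnnt2 turned to 0.15 ± 0.22 (adjusted p = 0.711). With the term 6.13% of genes were called. Within the low-numbered rats Actc1 was at 3623 ± 1797 CPM with vehicle (n = 3) and 2742 ± 1955 CPM with leptin (n = 5). There the log2 difference was -0.39 ± 0.54 (edgeR adjusted p = 0.725), with 0.00% of genes called. The 95% interval of the Actc1 difference with the term ran from -1.22 to 0.42.

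The comparison of ablation with intact BAT, both with leptin, held the 1 thin filament difference that came near the threshold, and it lay in troponin I. Tnni3 was at 2891 ± 1045 CPM (SD, n = 6; lowest 1698, median 2669, highest 4812) after ablation, against 4756 ± 1065 CPM with intact BAT. In 5 of the 6 ablation rats Tnni3 lay below the lowest leptin rat (3912 CPM), and the sixth, replicate 5 at 4812 CPM, lay inside the leptin range. The log2 difference was -0.72 ± 0.22 (SE), which missed the threshold as designed (edgeR adjusted p = 0.0686). It passed with the rat-number term, at -0.72 ± 0.20 (edgeR adjusted p = 0.0161), by DESeq2 at -0.73 (adjusted p = 0.0131) and by limma-voom at -0.64 (adjusted p = 0.0187). The boundary behind that term was read from these same libraries, and edgeR with the term called 18.6% of all genes. DESeq2 called 7.59% of all genes here and limma-voom 17.4%. The Tnni3 difference missed the threshold with only the 2 groups in the model (edgeR adjusted p = 0.273), a fit that called 0.00% of all genes. It also missed in edgeR without a scaling factor (adjusted p = 0.135), with no filter on low counts (0.114) and without mitochondrial genes (0.0900). Further misses in edgeR were with the size factors of DESeq2 (adjusted p = 0.0675) and with replicate number as a block (0.0594, with 5.89% of all genes called).

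Without ablation replicate 5 the difference as designed was -0.92 (edgeR adjusted p = 0.0110), and without leptin replicate 3, the highest leptin rat, it was -0.59 (adjusted p = 0.149). As designed, 1 of 12 such fits called Tnni3. In the model with the term, the call on Tnni3 held in all 12 fits that each left out 1 of the libraries compared, with edgeR adjusted p from 0.0011 to 0.0441 and log2 differences from -0.92 to -0.59. The share of all genes called in the left-out fits is not given here. With the term and all libraries it was 18.6%. Restricted to low-numbered rats (5 a group) it was -0.68 ± 0.25 (edgeR adjusted p = 0.0792), in a fit that called 11.4% of genes. In that subset ablation rats had 2929 ± 1164 CPM of Tnni3 and leptin rats with intact BAT 4682 ± 1174 CPM.

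Tnnt2 lay lower after ablation and did not pass, and Actc1 had no stable direction. Tnnt2 was at 5207 ± 2065 CPM (SD, n = 6; lowest 3092, median 4714, highest 8145) after ablation, with a log2 difference from intact BAT of -0.46 ± 0.28 as designed (edgeR adjusted p = 0.421) and -0.43 ± 0.21 with the term (adjusted p = 0.157). With the term and without ablation replicate 5 the Tnnt2 difference was -0.65 (edgeR adjusted p = 0.0167). That was the only call on Tnnt2 among 12 such fits, whose shares of all genes called are not given here. Actc1 was at 4479 ± 5334 CPM (lowest 921, median 2367, highest 15081), and its difference was 0.31 ± 0.66 as designed (edgeR adjusted p = 0.862), -0.01 ± 0.38 with the term and -0.61 without ablation replicate 6, the high-numbered rat at 15081 CPM.

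As designed, 0 of the 3 genes were called, with 1 at an unadjusted p below 0.05, as were 3118 of all 17347 genes. Of all tested genes 3.03% were called, 1.16% as lower after ablation, and 0.911% had groups without overlap. With the rat-number term 1 of 3 was called, against 18.6% of all genes (8.91% lower). Whether Tnni3 differed more than Tnnt2 was tested by their ratio, and no test passed after adjustment. The log2 ratio of Tnnt2 to Tnni3 was 0.83 ± 0.33 after ablation and 0.54 ± 0.34 with intact BAT, a difference of 0.28 (exact permutation p = 0.18, two-sided, adjusted p = 0.458 over 18 ratio tests). In the low-numbered rats alone the difference was 0.29 (exact permutation p = 0.0317, n = 5 a group, adjusted p = 0.333).

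Between denervation and intact BAT, both with leptin, none of the 3 genes passed. Denervated rats had Tnnt2 at 7765 ± 1381 CPM (SD, n = 6; lowest 5656, median 8141, highest 9194) and Tnni3 at 4195 ± 595 CPM (lowest 3287, median 4375, highest 4881). Their Actc1 was at 8836 ± 6380 CPM (lowest 2111, median 6419, highest 16867), and the 2 highest values are the 2 high-numbered rats. All groups overlapped. The log2 differences from intact BAT with leptin were 0.12 ± 0.28 (SE) for Tnnt2, -0.18 ± 0.22 for Tnni3 and 1.29 ± 0.67 for Actc1 (edgeR adjusted p = 0.843, 0.689 and 0.341).

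The background here was 0.00% of genes called as designed (2836 genes at an unadjusted p below 0.05, none of them a thin filament gene) and 0.951% without overlap, and 6.65% with the term. With the rat-number term the Actc1 difference was 0.84 ± 0.39 (edgeR adjusted p = 0.170), and without leptin replicate 3 as well it was 1.24 (adjusted p = 0.0359). That was the only call on Actc1 among 12 such fits, whose shares of all genes called are not given here. In the low-numbered rats Actc1 was at 4858 ± 2125 CPM after denervation (n = 4) and 2742 ± 1955 CPM with intact BAT (n = 5), a log2 difference of 0.82 ± 0.50 (edgeR adjusted p = 0.330, with 0.00559% of genes called). DESeq2 called 0 of the 3 and 2.67% of all genes. limma-voom called Actc1 at 1.38 (adjusted p = 0.0266), along with 22.8% of all genes.

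Against vehicle, the ablated rats had lower means of all 3 genes, and none passed as designed. The log2 differences were -0.52 ± 0.28 (SE) for Tnnt2, -0.48 ± 0.22 for Tnni3 and -0.86 ± 0.66 for Actc1 (edgeR adjusted p = 0.471, 0.457 and 0.536). With the rat-number term they were -0.29, -0.50 and -0.40. Without ablation replicate 6 the Actc1 difference was -1.79 (edgeR adjusted p = 0.159). At an unadjusted p below 0.05 there was 1 of the 3, Tnni3. DESeq2 called 0, with 0.114% of all genes, and limma-voom all 3, with 55.7% of all genes, at -0.88 for Tnnt2, -0.53 for Tnni3 and -2.05 for Actc1 (adjusted p = 0.00115, 0.00967 and 0.000833). By edgeR 0.00% of all genes were called with or without the term (1892 at an unadjusted p below 0.05 as designed), and 0.242% had groups without overlap. This comparison shares its ablation libraries with the one above and changes both BAT and the infusion.

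As designed, the means of the 3 genes in denervated and vehicle rats lay close to each other, and none passed. The log2 differences were 0.05 ± 0.28 (SE) for Tnnt2, 0.05 ± 0.22 for Tnni3 and 0.12 ± 0.66 for Actc1 (edgeR adjusted p = 0.9998 for each). With the rat-number term the differences were 0.21, 0.04 and 0.44, and in the low-numbered rats alone 0.40, 0.28 and 0.43, with none called. The intervals as designed, -0.52 to 0.63, -0.39 to 0.50 and -1.25 to 1.48, leave room for differences in either direction, most of all for Actc1. Here 0.00% of genes were called, 348 had an unadjusted p below 0.05 with none of the 3 among them, and 0.306% had groups without overlap. DESeq2 and limma-voom called 0 of the 3, where they called 0.00% and 46.4% of all genes. The mitochondrial share of reads was 26.7% ± 1.97 (SD) with denervation, 35.2% ± 1.17 with vehicle and 33.5% ± 5.35 with leptin. Its part in the levels was not tested.

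Ablation and denervation, both with leptin, differed in mean by -0.58 ± 0.28 for Tnnt2, -0.54 ± 0.22 for Tnni3 and -0.98 ± 0.66 for Actc1 on the log2 scale, ablation being the lower. None passed (edgeR adjusted p = 0.890 for each). The unadjusted p values were 0.0511, 0.0208 and 0.153, so that 1 of the 3 lay below 0.05, as did 778 of all genes. With the rat-number term the differences were -0.50 ± 0.21, -0.54 ± 0.20 and -0.84 ± 0.39, with all 3 at an unadjusted p below 0.05, as were 1482 of all 17347 genes, and none called (edgeR adjusted p = 0.569, 0.512 and 0.579). Without ablation replicate 6 the Actc1 difference as designed was -1.91 (edgeR adjusted p = 0.397). By edgeR 0.00% of all genes were called in both fits, and 0.190% had groups without overlap. DESeq2 (0.00% of all genes) and limma-voom (0.311%) called 0 of the 3.

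**Figure D3:**
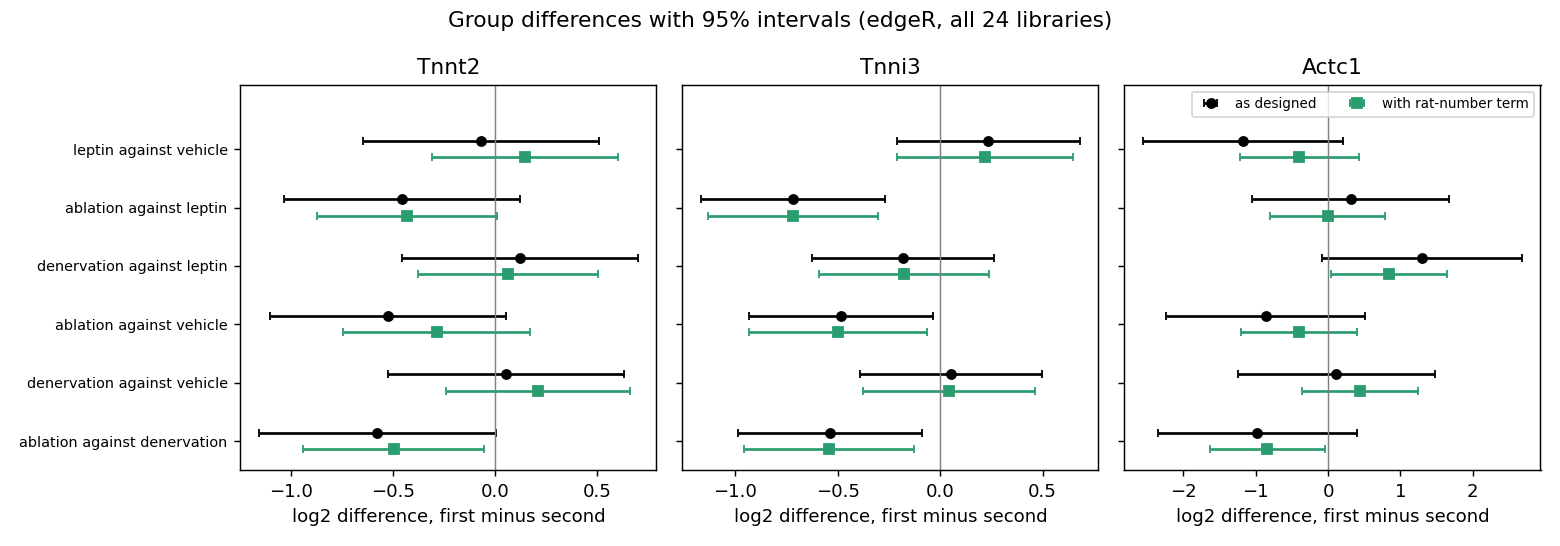
Log2 differences between groups (first named minus second) with 95% intervals for each gene, in the edgeR fit as designed (black circles) and with the rat-number term (green squares). The intervals of Actc1 are the widest as designed and narrow with the term, and the 3 comparisons with ablation named first have Tnni3 below 0 with intervals that do not reach 0, of which 1 passed after adjustment, ablation against leptin with the term, at -0.72.

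The ratios between the 3 genes did not separate the groups after adjustment. Of 18 exact permutation tests the smallest p values, all two-sided with 6 libraries a group, belonged to Actc1 against Tnnt2 and Tnni3. The log2 ratio of Actc1 to Tnnt2 was -1.27 ± 0.70 (SD) with leptin and -0.13 ± 0.65 with vehicle, a difference of -1.14 (exact permutation p = 0.0238, adjusted p = 0.221). That of Actc1 to Tnni3 was -0.73 ± 0.95 and 0.71 ± 0.98, a difference of -1.44 (exact permutation p = 0.0325, adjusted p = 0.221). Denervation stood above leptin by 1.13 and 1.46 in the same ratios (exact permutation p = 0.0368 and 0.0519, adjusted p = 0.221 and 0.234). These tests ignore the rat-number sets, and in the low-numbered rats alone the smallest adjusted p was 0.333. The smallest p that 6 against 6 libraries allow is 0.00216.

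The 3 genes together took 2.43% ± 0.74 (SD, n = 24) of the reads on nuclear genes, with no score test made. By group the share was 2.67% ± 0.67 with vehicle, 2.25% ± 0.55 with leptin, 1.90% ± 0.87 after ablation and 2.91% ± 0.57 after denervation (n = 6 each), and all groups overlapped. By rat-number set it was 3.19% ± 0.29 (n = 7) and 2.12% ± 0.64 (n = 17), and the ranges overlapped.

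The parts of that share moved in unlike ways. In the high-numbered rats Actc1 took 1.62% ± 0.41 of nuclear reads, against 0.524% ± 0.285 in the others. Tnnt2 took 1.10% ± 0.11 and 0.957% ± 0.245, and Tnni3 took 0.470% ± 0.082 and 0.642% ± 0.165, the lower mean being in the high-numbered rats. For each gene the ranges of the sets overlapped. A summed share of these 3 genes therefore stood higher in the high-numbered rats through Actc1, while the share of troponin I stood lower. Within the low-numbered rats the summed share was 2.16% ± 0.54 with vehicle (n = 3), 2.17% ± 0.57 with leptin (n = 5), 1.65% ± 0.67 after ablation (n = 5) and 2.63% ± 0.48 after denervation (n = 4). The order of ablation below and denervation above the 2 intact groups was the same as over all rats, and each neighbouring pair of groups overlapped.

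**Figure D4:**
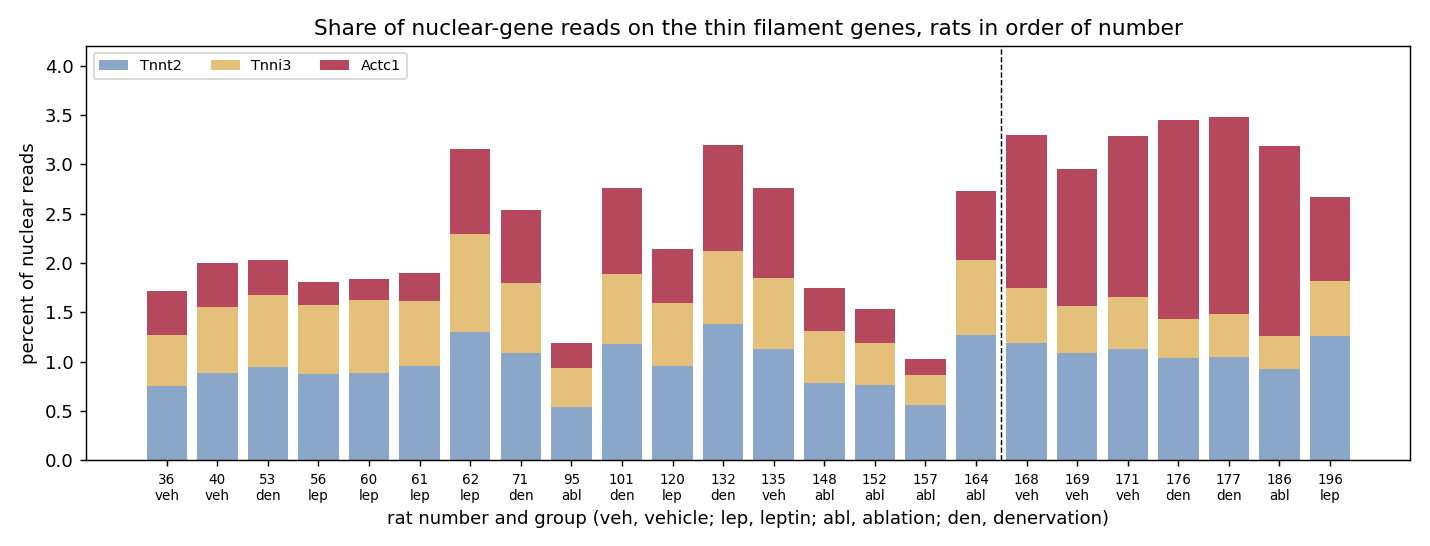
Percent of each library's nuclear reads on Tnnt2, Tnni3 and Actc1, stacked, for the 24 rats in order of rat number, with a dashed line between the low-numbered and the high-numbered rats. The Actc1 part is the widest part of most bars right of the line, where it averages 1.62% against 0.524% on the left, and the Tnni3 part averages 0.470% against 0.642%.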

How the data were processed

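Messenger RNA from 24 septa was sequenced in pairs, per the labels. The authors deposited whole-number read counts per gene. The submitters' processing notes name STAR 2.7.10a for alignment, featureCounts 2.0.2, DESeq2 and R 4.4.1. Per the file headers featureCounts was version 2.0.6, on Ensembl 113 and mRatBN7.2, with no strand or multimapping option. Counts of 2 (19013) and 4 (12355) exceed counts of 1 (5161) and 3 (3060), so both mates were counted.

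Counts were tested with edgeR 4.0.16 in R 4.3.3 (filterByExpr, TMM, robust quasi-likelihood, all 24 libraries in 1 model, Benjamini-Hochberg at 0.05 over 17347 genes). Alternatives used DESeq2 1.42.0, limma 3.58.1 (voom with quality weights), other scalings, a rat-number term, a length gradient, a replicate block and left-out libraries. Log2 CPM used a prior count of 2. The code was checked on simulated counts. Members, lists and the boundary between rat numbers were chosen with earlier results of these data known. Only the members are named, as the rule has it where identifiers are not paired with symbols: the gene name table pairs 0 identifiers, so lists of other thin filament genes and of cell type markers were not analysed here. A further 5 count columns, whose names fit none of the samples, were left aside.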

Additional observations from a re-analysis of the deposited data

Results flagged for a closer look

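In 4 of 28 groups of 6 values, 1 library stood far from the other 5. Among independent groups chance sets such a library apart in about 1 of 20. These groups share libraries and genes, so their count cannot be set against that rate. The gap to the nearest library, as a share of the group's range, was above the critical value of 0.625. Actc1 in ablation replicate 6 was at 15081 CPM (gap 0.746 of the range). The same library had a log2 ratio of Actc1 to Tnnt2 of 1.06 (gap 0.679) and of Actc1 to Tnni3 of 2.48 (gap 0.765). Leptin replicate 6 had a log2 ratio of Tnnt2 to Tnni3 of 1.19 (gap 0.659). Each of these rats is the only high-numbered one of its group.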

How the results depend on the processing

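As designed, edgeR called no thin filament gene, and the number called moved with the setting. Of 216 log2 differences under settings that left out no single library, 193 kept direction and side of the threshold. These include the threshold of 0.1, which reuses the fit as designed, so no direction could change under it. For leptin against vehicle, limma-voom called 2 genes (Actc1 at -2.19, Tnnt2 at -0.49) and the replicate block 1 (Actc1 at -1.23, adjusted p = 0.0447, with 21.0% of all genes called). For ablation against leptin 1 gene, Tnni3, was called by DESeq2 (-0.73), limma-voom (-0.64), with the rat-number term (-0.72), with the term and a length gradient (-0.86; 7.47% of all genes), and at an adjusted p below 0.1 (-0.72; 6.72%). limma-voom also called 1 gene for denervation against leptin (Actc1 at 1.38) and 3 for ablation against vehicle (-0.88, -0.53 and -2.05 for Tnnt2, Tnni3 and Actc1). Of all genes, limma-voom called 60.7% for leptin against vehicle and 17.4% for ablation against leptin. It called 22.8% for denervation against leptin and 55.7% for ablation against vehicle. For ablation against leptin DESeq2 called 7.59% of all genes, and edgeR with the rat-number term called 18.6%. 

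Directions turned for small differences. Tnnt2, leptin against vehicle, turned to 0.060 without a scaling factor, 0.15 with the rat-number term, 0.23 with the term and gradient and 0.18 in the low-numbered rats. Actc1, ablation against leptin, turned to -0.0060, -0.23 and -0.22 under the last 3 of these. Tnnt2, denervation against leptin, was -0.054 with the term and gradient. For denervation against vehicle, limma-voom gave -0.17 for Tnnt2 and -0.81 for Actc1, and the replicate block -0.0096 for Actc1. In the low-numbered rats the log2 ratio of Tnnt2 to Tnni3 differed by 0.16 for ablation against vehicle and 0.048 for ablation against denervation, both reversed. With all reads as denominator the summed share was 1.73% with vehicle, 1.52% with leptin, 1.25% after ablation and 2.13% after denervation. The cause was not tested, except that the last alternative adds the mitochondrial reads to the denominator.

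Leaving out each library in turn gave ranges that crossed 0 or the threshold. For leptin against vehicle Tnnt2 ran from -0.27 to 0.035. For ablation against leptin Tnni3 ran from -0.92 to -0.59, with 0 to 1 genes called, and Actc1 from -0.61 to 0.71. For denervation against vehicle the ranges were -0.063 to 0.16 (Tnnt2), -0.022 to 0.11 (Tnni3) and -0.17 to 0.32 (Actc1). The left-out fits with the rat-number term were added after the data were seen. The term itself was planned, with its boundary already read from these libraries. In them Actc1 ran from -0.25 to 0.41 for ablation against leptin and Tnnt2 from -0.052 to 0.17 for denervation against leptin. Tnni3 ran from -0.054 to 0.12 for denervation against vehicle. Ratios crossed 0 for denervation against vehicle (-0.24 to 0.24 for Actc1 to Tnnt2, -0.30 to 0.38 for Actc1 to Tnni3, -0.059 to 0.15 for Tnnt2 to Tnni3). They also did for Tnnt2 to Tnni3 in ablation against vehicle (-0.13 to 0.063) and against denervation (-0.17 to 0.048).

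Of 36 pairs of same-numbered libraries 24 correlated above 0.1 (-0.34 to 0.73, median 0.20, against -0.0093 for other pairs), and 9 of 24 libraries correlated best with their own number. Not every pair passed 0.1, so the numbers were not taken as pairs. Replicate 6 is high-numbered in all 4 groups and replicates 1, 2 and 3 in none, so the replicate block also carries part of the rat-number difference. With it, 6 of the 18 ratio tests had p = 0.03125, the smallest that exact sign flips of 6 pairs allow, which adjusts to 0.0938 and is limited by that floor.

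The count table names no other gene, so the levels cannot be set against other cardiomyocyte genes here. Spread between rats, not depth, limits every value.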
